A study of Mus musculus with 14 samples.

Results

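The 10 genes described here encode ligands, receptors, an extracellular inhibitor, an intracellular inhibitor and a target of the TGF-beta and activin pathway: Tgfb1, Tgfb2, Tgfb3, Inhba, Inhbb, Fst, Tgfbr1, Tgfbr2, Smad7 and Tgfbi. They were taken by name, and all 10 were found among the 27179 genes of the keratinocyte table and the 24411 genes of the epidermis table. All mice were newborn and homozygous for a Trp63 allele with a floxed exon 13 (Trp63-Ex13fl/fl). In p63beta mice the KRT14-Cre transgene deletes that exon, which encodes part of the alpha C-terminus of the transcription factor p63, in cells that use the keratin 14 promoter. In p63alpha mice there is no Cre and the exon stays. RNA was sequenced from cultured proliferating primary keratinocytes (3 p63beta and 3 p63alpha libraries) and from whole epidermis (4 p63beta and 4 p63alpha libraries). Nothing in the labels ties each library to its own mouse, and the p-values here measure no more than the variation among the sequenced libraries.

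TGF-beta and activin dimers bind paired type I and type II serine/threonine kinase receptors, which phosphorylate SMAD2 and SMAD3, and these enter the nucleus with SMAD4. In the epidermis, TGF-beta is best known for restraining keratinocyte proliferation and for inducing matrix genes, while activin is known for its part in wound repair in mouse skin. Follistatin binds activins outside the cell, and SMAD7, itself induced by the pathway, blocks the receptors inside it.

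Of the 10 genes, Inhbb, which encodes the subunit of activin B, showed the largest difference between genotypes in keratinocytes, at 3.45-fold the p63alpha level in p63beta cells. It missed the threshold in the plain edgeR fit and passed it when the replicate number was a block in that fit. In that culture Smad7 was higher and Tgfb3 lower in every p63beta library than in any p63alpha library, but neither passed with or without the block. In epidermis none of the 10 genes passed, and p63beta and p63alpha libraries overlapped for all 10. Calls rest on edgeR's quasi-likelihood test at a threshold of 0.05 on the adjusted p, and levels are CPM (counts scaled to library size) unless stated. Fold changes are p63beta over p63alpha.

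Library totals lay between 20688027 and 30066041 read pairs for keratinocytes and between 21290068 and 44909629 estimated counts for epidermis. Trp63, the targeted gene, was at 343, 358 and 391 CPM in p63beta keratinocytes, against 193, 179 and 179 CPM in p63alpha keratinocytes. In epidermis it was at 544.5 to 765 CPM in p63beta and 259 to 631 CPM in p63alpha libraries. The counts of whole genes do not show the loss of exon 13. In the epidermis, 2 of 8 annotated Trp63 transcripts were listed at 0 in every p63beta library, and the more abundant of them was at 37.5 to 107 TPM in p63alpha libraries. The basal keratinocyte markers Krt5, Krt14, Krt15, Itga6, Itgb4, Col17a1 and Trp63 were detected in every library. Their sum was 23900 to 34040 CPM in p63beta and 23470 to 36380 CPM in p63alpha keratinocytes. It was 8834 to 19950 CPM in p63beta and 9322 to 15910 CPM in p63alpha epidermis, with the lowest value of each genotype in the libraries named EP12 (p63beta) and WT3 (p63alpha). Genes of striated muscle summed to 3523 CPM in p63beta keratinocyte library 3, against 117 to 298 CPM in the other 5 libraries, and 10 of the 15 muscle genes had their highest value there. The summed melanocyte markers did not overlap between the genotypes in epidermis, at 326 to 488 CPM in p63beta and 121 to 269 CPM in p63alpha libraries. Of the 8 markers, 4 were without overlap on their own, beside 3.07% of all genes tested in epidermis. The epidermis column names carry 2 prefixes, with 3 libraries per genotype under the first and 1 per genotype (KO2 and WT3) under the second. The names do not say what a prefix stands for.

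Because Inhbb had the largest difference in culture and Inhba encodes the other activin subunit among the 10 genes, the 250 bases before each RefSeq transcription start are shown, read 5′ to 3′ on the strand of the gene (GRCm38.p6, the mm10 build), with CpG dinucleotides in capitals. The Inhbb sequence is chr1:119422249-119422498 on the minus strand and the Inhba sequence is chr13:16011601-16011850 on the plus strand.
Inhbb: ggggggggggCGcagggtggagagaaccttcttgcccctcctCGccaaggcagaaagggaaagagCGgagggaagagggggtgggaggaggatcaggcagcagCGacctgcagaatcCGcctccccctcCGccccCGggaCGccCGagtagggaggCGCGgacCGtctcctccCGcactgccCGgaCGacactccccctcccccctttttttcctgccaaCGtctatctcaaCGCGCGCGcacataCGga
Inhba: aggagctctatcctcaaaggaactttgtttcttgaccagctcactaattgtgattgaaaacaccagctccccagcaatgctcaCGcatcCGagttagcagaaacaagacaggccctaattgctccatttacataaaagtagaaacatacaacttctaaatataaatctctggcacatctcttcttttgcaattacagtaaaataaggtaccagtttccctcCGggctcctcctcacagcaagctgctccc

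The Inhbb sequence holds 21 CpG dinucleotides, more than 83.7% of the 32851 mouse promoter windows of this length, and the Inhba sequence holds 3, more than 29% of them. The Inhba start lies 2624 bases before the first exon that was counted in the keratinocyte table. Neither sequence contains CATG, a form of the core of the p53-family binding site, or CAGAC, a form of the SMAD binding element, read on both strands. Other forms of that core were not counted, so the absence of CATG does not show that such a core is absent. Of all promoter windows, 53.9% hold CATG and 42.2% hold CAGAC. RefSeq windows matched 7 of the 10 genes, and among their 8 windows 3 held CATG and 4 held CAGAC.

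The ligands were considered first. Inhbb (chr1:119415465-119422248, minus strand, 2 exon blocks) was at 25.4, 35.7 and 40.2 CPM in p63beta keratinocytes 1, 2 and 3, against 7.98, 11.4 and 9.99 CPM in p63alpha keratinocytes 1, 2 and 3. All 3 p63beta libraries lay above all 3 p63alpha libraries, and the lowest p63beta value was over the highest p63alpha value by more than the whole p63alpha range. The means were 33.8 ± 7.59 CPM in p63beta and 9.78 ± 1.70 CPM in p63alpha keratinocytes (SD, n = 3 each). On the log2 scale p63beta was higher by 1.79 ± 0.22 (SE), a 3.45-fold difference with a 95% interval of 2.39 to 4.98, and the edgeR adjusted p was 0.0977. With the replicate number as a block, Inhbb rose in p63beta keratinocytes by 1.78 ± 0.11 on the log2 scale (edgeR adjusted p 0.0330, fold interval 2.82 to 4.17). Within the numbered pairs the ratio was 3.18, 3.15 and 4.02. Because the genotypes did not overlap, Inhbb would be higher in the p63beta library under any pairing. In the authors' deposited table the shrunken log2 fold change of Inhbb in keratinocytes was 1.30, with an adjusted p of 1.04e-09. That table called 1.50% of its genes.

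The call of Inhbb in the block fit depended on single pairs: without pair 1 the adjusted p was 0.00942, without pair 2 it was 0.482 and without pair 3 it was 0.0708, all in edgeR. The log2 fold change was 1.66 to 1.84 in these 3 fits, which hold fewer libraries and so estimate the spread less well. Without p63beta library 3, the library with the high muscle genes, the unblocked log2 fold change was 1.63 (edgeR adjusted p 0.452).

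None of the 10 genes was called in keratinocytes without the block, where 0.101% of the 13820 genes tested were called (14 genes), although 2 of the 10 had an unadjusted p under 0.05 in edgeR, where 6.85% of all genes had. DESeq2 called 1 of the 10, Inhbb, where it called 1.45% of all genes. With the block 1 of the 10 was called, where 0.268% of all genes were called (37 genes). Of the 10, 3 (Inhbb, Smad7 and Tgfb3) had no overlap between genotypes, where 12.3% of all genes had none. The median log2 fold change of the 10 genes was 0.08, with 7 of 10 above 0, beside a median of 0.00 and 49.7% above 0 over all genes tested.

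**Figure D1:**
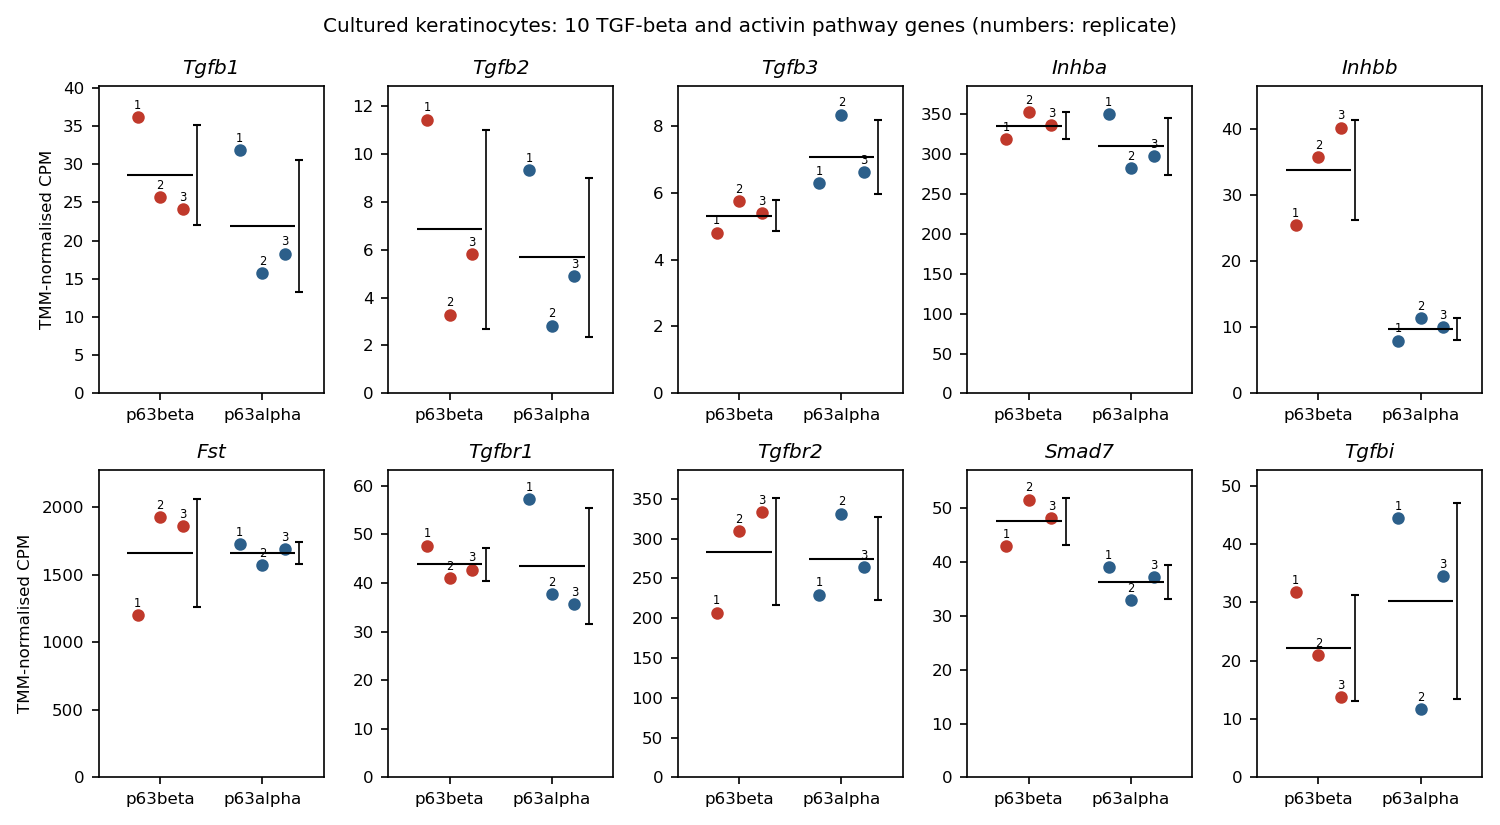
TMM-normalised CPM (y axis, from 0) of each gene in cultured keratinocytes, p63beta (red) and p63alpha (blue), with 1 point per library labelled by its replicate number, the mean as a line and the SD as a bar (n = 3 each). Inhbb lies at 25.4 to 40.2 CPM in p63beta and 7.98 to 11.4 CPM in p63alpha, while most other genes overlap.

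Inhba (chr13:16014475-16027211, plus strand), which encodes the subunit of activin A, was at 318, 353 and 336 CPM in p63beta keratinocytes, against 349.6, 282 and 297 CPM in p63alpha keratinocytes. The groups overlapped, and the ratio within pairs was 0.911, 1.25 and 1.13. Its log2 difference was 0.12 ± 0.11 (SE, edgeR adjusted p 0.925), with a fold interval of 0.906 to 1.30. Inhba and Inhbb thus stood at different levels in culture: per length, Inhba averaged 211 ± 16.7 FPKM and Inhbb 5.10 ± 3.23 FPKM over the 6 libraries (SD).

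The TGF-beta ligands had smaller differences than Inhbb in culture. Tgfb1, the main TGF-beta isoform of most tissues, was at 36.1, 25.6 and 24.1 CPM in p63beta keratinocytes, against 31.8, 15.7 and 18.3 CPM in p63alpha keratinocytes. The groups overlapped because both number 1 libraries were high, yet the p63beta library was the higher of each pair (1.14-, 1.63- and 1.32-fold). The log2 fold change was 0.38 ± 0.30 without the block (SE, edgeR adjusted p 0.907) and 0.43 ± 0.12 with it (edgeR adjusted p 0.269). Tgfb2, another isoform, was at 11.4, 3.29 and 5.82 CPM in p63beta keratinocytes, against 9.31, 2.82 and 4.90 CPM in p63alpha keratinocytes. The values followed the replicate number: both number 1 libraries were highest, and the p63beta library was the higher of each pair by 1.23-, 1.17- and 1.19-fold. The block brought the SE of the Tgfb2 log2 fold change from 0.59 down to 0.14, around values of 0.27 and 0.26, and the edgeR adjusted p with the block was 0.522. Tgfb3 (chr12:86056743-86079041, minus strand), the third isoform, was at 4.81, 5.75 and 5.395 CPM in p63beta keratinocytes, against 6.28, 8.33 and 6.61 CPM in p63alpha keratinocytes. Every p63beta library was below every p63alpha library. The Tgfb3 log2 fold change was -0.41 ± 0.19 (SE), with an edgeR adjusted p of 0.752 without the block and 0.368 with it. An unnamed gene on the opposite strand overlaps 347 bases of the Tgfb3 exons. The keratinocyte counts used strand, while no source used here says whether the epidermis estimates did.

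**Figure D2:**
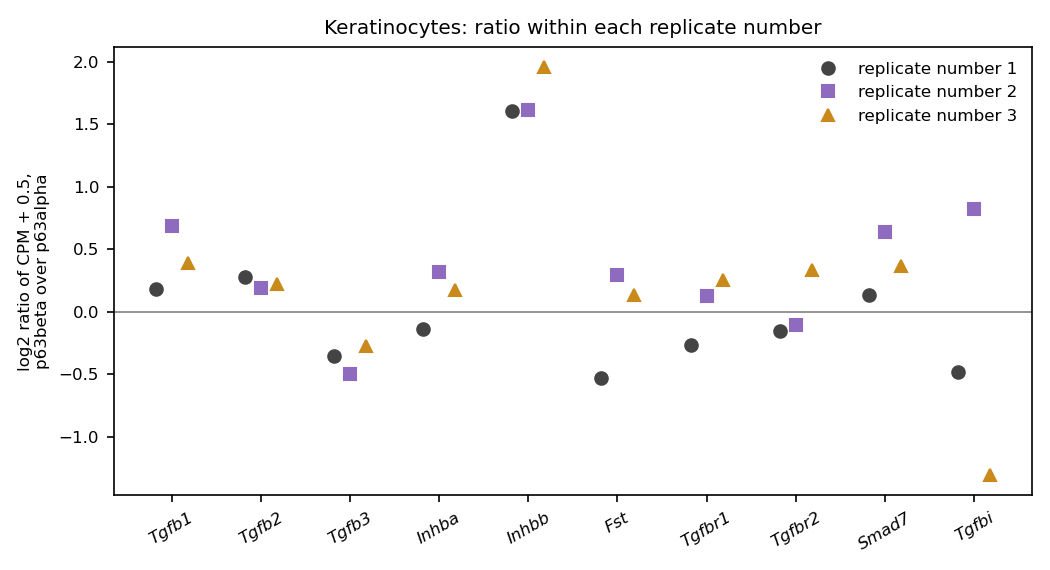
Log2 ratio of p63beta over p63alpha (y axis, of CPM + 0.5) for the libraries of each replicate number in keratinocytes, with 1 marker per number and genes on the x axis. Inhbb, Tgfb1, Tgfb2 and Smad7 lie above 0 in all 3 pairs and Tgfb3 below 0 in all 3, while Fst, Inhba, Tgfbr1, Tgfbr2 and Tgfbi lie on both sides of 0.

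Fst, which encodes the activin antagonist follistatin, was the most abundant of the 10 genes in culture, at 1200, 1929 and 1860 CPM in p63beta keratinocytes, against 1730, 1574 and 1689 CPM in p63alpha keratinocytes. The p63beta libraries enclosed the p63alpha libraries, with p63beta library 1 the lowest of the 6 and the other 2 p63beta libraries the highest. Its log2 difference was 0.00 ± 0.19 (SE, edgeR adjusted p 0.9998), and the 95% interval allows a fold of 0.723 to 1.38.

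Among the receptors, Tgfbr1 encodes the type I and Tgfbr2 the type II receptor of TGF-beta. Tgfbr1 was at 47.7, 41.1 and 42.7 CPM in p63beta keratinocytes, against 57.3, 37.6 and 35.7 CPM in p63alpha keratinocytes. Tgfbr2 was at 207, 309 and 334 CPM in p63beta keratinocytes, against 229.5, 332 and 264 CPM in p63alpha keratinocytes. Both genes overlapped between genotypes, and both followed the replicate number: the number 1 libraries held the 2 highest Tgfbr1 values and the 2 lowest Tgfbr2 values. The log2 fold changes were 0.01 ± 0.20 for Tgfbr1 and 0.04 ± 0.22 for Tgfbr2 (SE, edgeR adjusted p 0.997 and 0.992), with fold intervals of 0.725 to 1.40 and 0.714 to 1.49. Over the 10 genes, 3 (Tgfb1, Tgfb2 and Tgfbr1) had their 2 highest values and 1 (Tgfbr2) its 2 lowest values in the number 1 libraries. These 2 libraries also had the lowest sums of basal markers, 23900 CPM in p63beta and 23470 CPM in p63alpha, and the highest sums of suprabasal markers, 919.9 CPM in p63beta and 888 CPM in p63alpha, against 311 to 388 CPM in the other 4. Sbsn, at 707.3 CPM in p63beta and 748.4 CPM in p63alpha library 1, made up most of the suprabasal sums. Krt1, Krt10, Lor and Flg were also highest there. Dsg1a was highest in p63alpha library 2, and Ivl in p63alpha library 1 was below p63beta libraries 2 and 3. Krt5 and Krt14 made up most of the basal sums, and they, Itgb4 and Col17a1 were lowest in the number 1 libraries. Krt15 was highest there, and Itga6 and Trp63 were lowest in p63alpha libraries 2 and 3. The part of these marker differences in the receptor values was not tested.

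Smad7 (chr18:75367365-75395934, plus strand), the inhibitory SMAD that TGF-beta induces as feedback, was at 42.9, 51.6 and 48.2 CPM in p63beta keratinocytes, against 39.0, 32.9 and 37.3 CPM in p63alpha keratinocytes. Every p63beta library was above every p63alpha library. The Smad7 log2 fold change was 0.39 ± 0.11 (SE), a 1.31-fold difference, with an edgeR adjusted p of 0.517 without the block and 0.287 with it. Tgfbi, a secreted matrix protein named for its induction by TGF-beta, was at 31.7, 21 and 13.7 CPM in p63beta keratinocytes, against 44.4, 11.7 and 34.6 CPM in p63alpha keratinocytes. Tgfbi was the most variable of the 10 genes within pairs, with ratios of 0.714, 1.80 and 0.397, and its log2 difference was -0.45 ± 0.52 (SE, edgeR adjusted p 0.950).

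Per length, the 10 genes kept a clear order at the top in keratinocytes. Fst averaged 710 ± 102 FPKM, Inhba 211 ± 16.7 FPKM and Tgfbr2 58.2 ± 10.7 FPKM (SD over 6 libraries), and the ranges of these 3 did not overlap with each other or with the next gene. Tgfb1 (12.1 ± 3.77 FPKM), Tgfbi (9.79 ± 4.81), Smad7 (9.44 ± 1.51), Tgfbr1 (7.70 ± 1.35) and Inhbb (5.10 ± 3.23) followed, then Tgfb3 (1.83 ± 0.365) and Tgfb2 (1.33 ± 0.738 FPKM), and neighbours in this lower part overlapped. In epidermis, Tgfbi led with 89.3 ± 32.1 TPM (SD over 8 libraries), then Fst with 39.8 ± 20.6, Tgfbr2 with 22.4 ± 9.93 and Tgfb1 with 18.3 ± 6.97 TPM. Tgfbr1 (12.0 ± 3.33 TPM), Tgfb3 (9.59 ± 5.04), Inhbb (6.44 ± 3.81), Tgfb2 (3.59 ± 1.73) and Smad7 (2.89 ± 0.661) followed, and Inhba was lowest at 0.824 ± 0.697 TPM. Every neighbour in the epidermis order overlapped with the next. Inhba thus ranked second of 10 in culture and last in tissue, where it was at 4 to 45 estimated counts per library. The 2 tables were normalised separately, so only the orders are set side by side.

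In epidermis the same comparison called none of the 10 genes, where 0.232% of the 13796 genes tested were called (32 genes). In edgeR 0 of the 10 had an unadjusted p under 0.05, where 4.64% of all genes had. In DESeq2 1 of the 10 had, none was called where 0.945% of all genes were, and limma called none. None of the 10 was without overlap between genotypes, where 3.07% of all genes had none. With the column-name prefix as a term none of the 10 was called, where 0.275% of all genes were (38 genes). The median log2 fold change of the 10 genes was 0.09, with 6 of 10 above 0, beside a median of 0.00 and 49.3% above 0 over all genes tested. All 10 had an edgeR adjusted p of 0.9999. Values stand in the order EP10, EP11, EP12 and KO2 for p63beta and EP07, EP08, EP09 and WT3 for p63alpha.

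Inhbb was at 25.8, 30.8, 7.27 and 13.5 CPM in p63beta epidermis, against 17.1, 21.4, 11.4 and 3.51 CPM in p63alpha epidermis. The 2 highest libraries were p63beta and the lowest was p63alpha, but EP12 fell below 3 of the 4 p63alpha libraries. The log2 fold change was 0.53 ± 0.55 (SE, n = 4 each). Inhba was at 1.83, 0.604, 0.736 and 0.449 CPM in p63beta epidermis, against 0.441, 0.193, 1.14 and 0.134 CPM in p63alpha epidermis. The highest Inhba library, EP10, was p63beta, while EP09, a p63alpha library, was second. The Inhba log2 fold change was 0.93 ± 0.71 (SE), with a 95% interval of -0.65 to 2.51. It was 0.34 without EP10, the highest p63beta library, and 1.78 without EP09, the highest p63alpha library (edgeR adjusted p 0.9992 and 0.839).

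Fst was at 91.5, 84.8, 27.3 and 49.97 CPM in p63beta epidermis, against 64.5, 88.7, 56.8 and 15.3 CPM in p63alpha epidermis. Its log2 fold change was 0.17 ± 0.51 (SE). The Fst values ran in the same order of libraries at the bottom as Inhbb, with WT3 lowest and EP12 next. Only the epidermis has transcript values, and there the leading of 3 Fst transcripts held 69.2% ± 5.98 of the Fst TPM in p63beta and 59.4% ± 11.6 in p63alpha libraries (SD, n = 4 each, two-sided exact permutation p 0.229, adjusted 0.457). The leading of 2 Tgfbr2 transcripts held 56.3% ± 10.3 in p63beta and 52.8% ± 12.4 in p63alpha libraries (SD, n = 4 each, two-sided exact permutation p 0.771). The smallest p that 70 splits of 8 libraries can give is 0.0286.

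**Figure D3:**
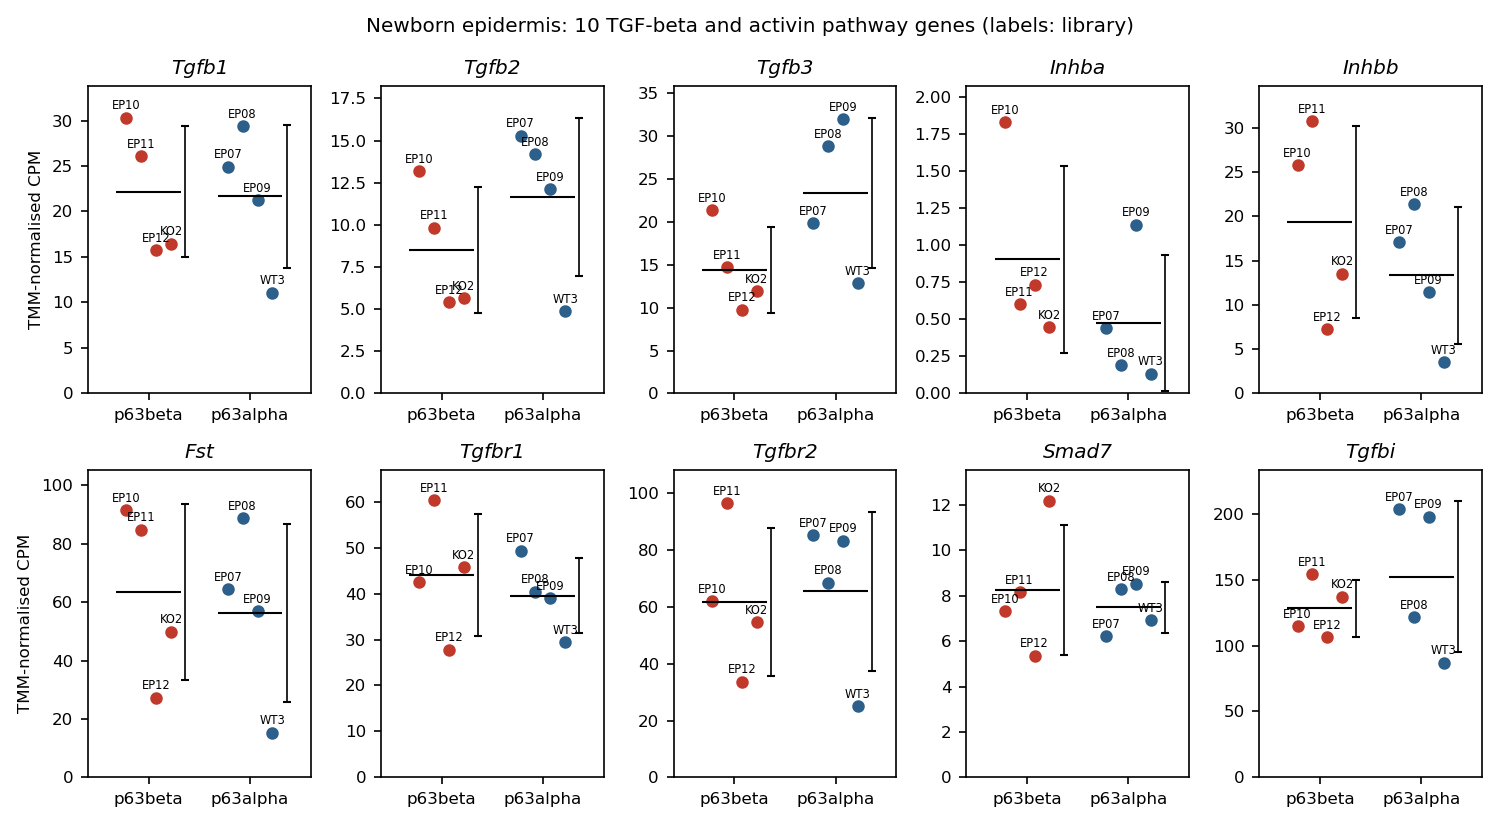
TMM-normalised CPM (y axis, from 0) of each gene in newborn epidermis, p63beta (red) and p63alpha (blue), with 1 labelled point per library, the mean as a line and the SD as a bar (n = 4 each). The groups overlap for all 10 genes, and the lowest library is WT3 for 7 of them and EP12 for 3.

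The TGF-beta ligands overlapped between genotypes in epidermis and none passed the test. Tgfb1 was at 30.3, 26.1, 15.8 and 16.5 CPM in p63beta epidermis, against 24.9, 29.4, 21.2 and 11.1 CPM in p63alpha epidermis (log2 fold change 0.03 ± 0.32, SE). Tgfb2 was at 13.2, 9.82, 5.41 and 5.64 CPM in p63beta epidermis, against 15.3, 14.2, 12.1 and 4.88 CPM in p63alpha epidermis (-0.45 ± 0.40). For both genes WT3 was the lowest of the 8 libraries and EP12 next. Tgfb3 was at 21.3, 14.7, 9.78 and 11.9 CPM in p63beta epidermis, against 19.8, 28.8, 31.9 and 12.8 CPM in p63alpha epidermis. Tgfb3 had the lowest unadjusted p of the 10 genes in epidermis (0.0566), with a log2 fold change of -0.69 ± 0.32 (SE). It was below 0 in both kinds of sample.

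For the receptors Tgfbr1 and Tgfbr2 and for Smad7 and Tgfbi, the log2 fold change in epidermis was smaller than its SE. Tgfbr1 was at 42.5, 60.3, 27.8 and 45.7 CPM in p63beta epidermis, against 49.4, 40.4, 39.0 and 29.4 CPM in p63alpha epidermis (log2 fold change 0.16 ± 0.24, SE). Tgfbr2 was at 62.1, 96.6, 33.7 and 54.7 CPM in p63beta epidermis, against 85.2, 68.6, 83.4 and 25.1 CPM in p63alpha epidermis (-0.09 ± 0.39). EP12 and WT3 were again the 2 lowest libraries for both receptors. Smad7 was at 7.33, 8.17, 5.37 and 12.2 CPM in p63beta epidermis, against 6.20, 8.30, 8.52 and 6.92 CPM in p63alpha epidermis (log2 fold change 0.15 ± 0.28, SE). Tgfbi was at 115, 154, 107 and 137 CPM in p63beta epidermis, against 203, 122, 198 and 86.9 CPM in p63alpha epidermis (-0.25 ± 0.26). For Smad7, KO2 stood highest and EP12 lowest, both p63beta, and for Tgfbi the 2 highest libraries and the lowest were p63alpha.

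For 7 of the 10 genes (Tgfb1, Tgfb2, Tgfbr1, Tgfbr2, Inhbb, Fst and Tgfbi) EP12 and WT3 were the 2 lowest of the 8 libraries. They also had the lowest basal marker sums, 8834 CPM in EP12 and 9322 CPM in WT3, against 13420 to 19950 CPM in the other 6. Krt5 and Krt14 make up most of that sum, and they, Itga6 and Itgb4 were lowest in these 2 libraries. The other markers of the list were not: Trp63 was highest of all libraries in EP12 (765 CPM) and lowest in WT3 (259 CPM), Krt15 was at 1332 CPM in EP12 and 1971 CPM in WT3, against 427 to 2325 CPM in the other 6, and Col17a1 was at 1221 CPM in EP12 and 552 CPM in WT3, against 1025 to 1446 CPM. In bulk tissue, fewer cells of a type and less RNA per cell cannot be told apart, and the part of this in the values of the 10 genes was not tested. Without EP12 and WT3 together, none of the 10 genes was called and Inhbb had a log2 fold change of 0.49 (edgeR adjusted p 0.660).

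**Figure D4:**
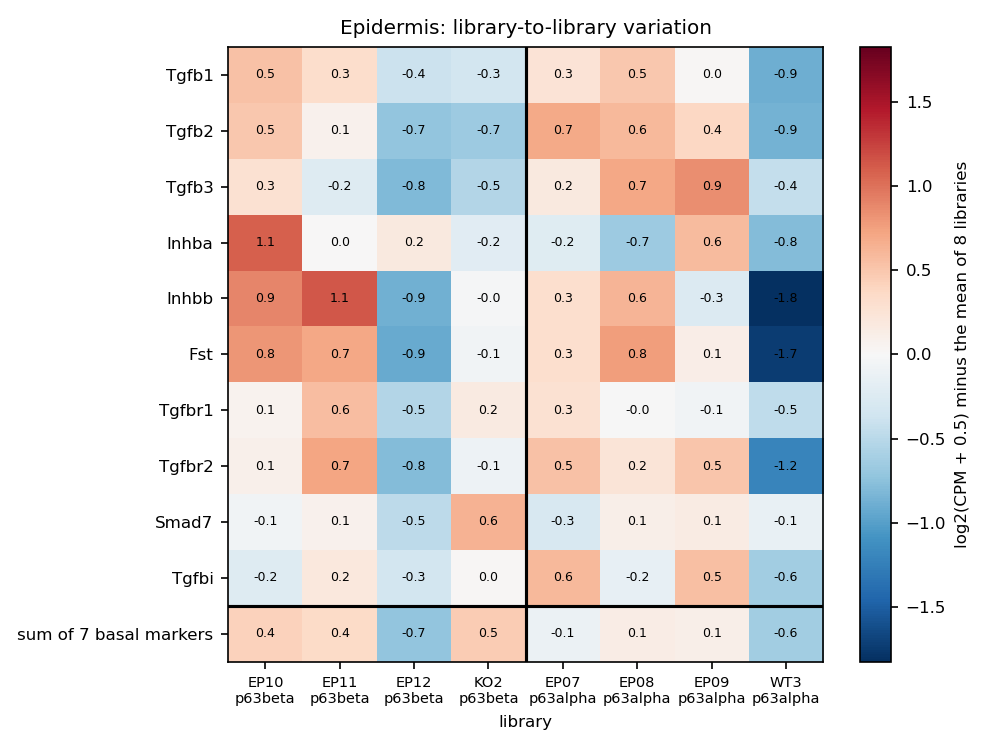
Log2(CPM + 0.5) of each gene in each epidermis library, minus the mean of the 8 libraries (colour and printed value, rows are genes and columns are libraries, p63beta to the left of the line), with the sum of 7 basal keratinocyte markers below. EP12 and WT3 are low for the basal sum and for 7 of the 10 genes.

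Next, the effects in the 2 kinds of sample were set against each other in 1 fit of all 14 libraries. None of the 10 differences was called: the epidermis effect minus the keratinocyte effect had an edgeR adjusted p of 0.99994 for all 10 genes. Of the 14656 genes tested, 0% were called, with 618 genes (4.22%) at an unadjusted p under 0.05. For Inhbb the log2 fold change was 0.53 in epidermis and 1.79 in keratinocytes, and the difference was -1.24 ± 0.73 (SE, unadjusted p 0.114). For Inhba the log2 fold change was 0.93 in epidermis and 0.12 in keratinocytes, with a difference of 0.84 ± 0.69 (SE). Tgfb2 had opposite signs, at -0.45 in epidermis and 0.27 in keratinocytes, with a difference of -0.71 ± 0.72 (SE).

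**Figure D5:**
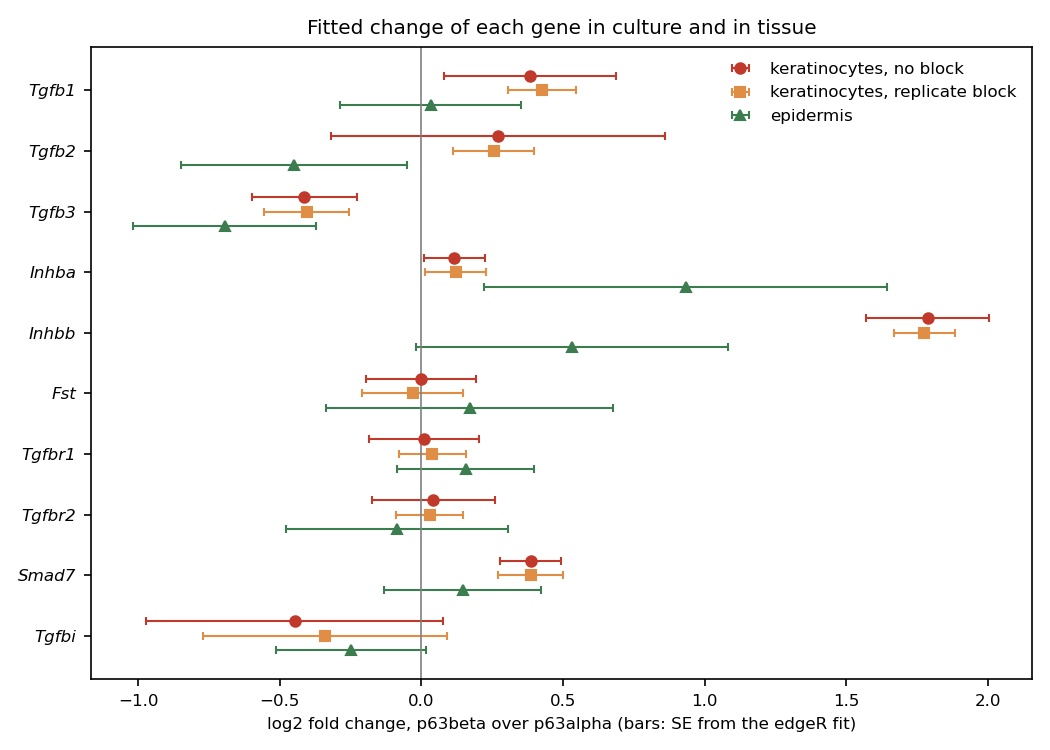
Log2 fold change of p63beta over p63alpha (x axis) of each gene in keratinocytes without and with the replicate block and in epidermis, with the SE of the edgeR fit as bars. Inhbb lies at 1.79 and 1.78 in keratinocytes and 0.53 in epidermis, and no other gene is past 1 in either.

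Other genes of the pathway were taken from 7 lists with 58 genes. In keratinocytes 52 were tested and none was called by edgeR without the block, beside 0.101% of all genes, with 3 at an unadjusted p under 0.05, beside 6.85%. Their median log2 fold change was 0.04 and 30 of 52 were above 0, beside 49.7% of all genes. In epidermis 49 were tested, none was called by edgeR, beside 0.232% of all genes, and 4 had an unadjusted p under 0.05, beside 4.64% of all genes. Their median was -0.10 and 19 of 49 were above 0, beside 49.3% of all genes. With the block, 1 of the 52 was called in keratinocytes, beside 0.268% of all genes: Angptl4, a secreted inhibitor of lipoprotein lipase that TGF-beta induces in some cells. It was at 38.7, 150.4 and 139.5 CPM in p63beta keratinocytes, against 19.0, 54.2 and 58.0 CPM in p63alpha keratinocytes. Both number 1 libraries were low, and the groups overlapped. Angptl4 rose with the block by 1.26 ± 0.10 on the log2 scale (SE, edgeR adjusted p 0.0431) but without it the value was 1.32 ± 0.61 (edgeR adjusted p 0.760). Angptl4 was named after its values were seen.

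The genes of these lists with the lowest p in each system showed no call. Among SMAD transducers in keratinocytes, Smad3 was at 147 ± 24.1 CPM in p63beta and 113 ± 3.25 CPM in p63alpha (SD, n = 3 each), with no overlap and a log2 fold change of 0.38 ± 0.13 (SE, edgeR adjusted p 0.627). Smad4, the shared SMAD, was at 104 ± 7.77 CPM in p63beta and 117.5 ± 8.16 CPM in p63alpha, with no overlap in the other direction and a log2 fold change of -0.17 ± 0.09 (SE, edgeR adjusted p 0.789). Cdkn2b, the cyclin-dependent kinase inhibitor that TGF-beta induces in epithelial cells, was at 4.89 ± 0.264 CPM in p63beta and 3.11 ± 0.945 CPM in p63alpha keratinocytes without overlap (log2 fold change 0.65 ± 0.27, SE, edgeR adjusted p 0.715). Ctgf/Ccn2, a matricellular protein and TGF-beta target, was at 741 ± 21.2 CPM in p63beta and 957 ± 206 CPM in p63alpha keratinocytes also without overlap (-0.37 ± 0.16, SE, edgeR adjusted p 0.731). Of the 52 listed genes tested in keratinocytes, those without overlap were 2 SMAD transducers, 2 targets and 1 ligand trap (Dcn), beside 12.3% of all genes tested. Of the 15 targets tested in culture, 10 had a log2 fold change above 0, with a median of 0.17, and none was called without the block.

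Among ligand traps, Dcn, a matrix proteoglycan that binds TGF-beta, was at 2.58, 2.70 and 51.7 CPM in p63beta keratinocytes, against 2.45, 1.66 and 1.67 CPM in p63alpha keratinocytes. Its log2 fold change of 3.30 ± 1.28 (SE, edgeR adjusted p 0.699) came with library 3, in which fibroblast markers summed to 299 CPM, against 83.5 to 226 CPM in the other 5 libraries. Dcn is itself one of the fibroblast markers. Fstl1, a follistatin-like secreted protein, was at 67.1 ± 19.2 CPM in p63beta and 44.6 ± 11 CPM in p63alpha keratinocytes (log2 fold change 0.59 ± 0.26, SE, edgeR adjusted p 0.730). Of the activators of latent TGF-beta, Itgb8 was at 3.58 ± 1.77 CPM in p63beta and 6.12 ± 1.25 CPM in p63alpha keratinocytes. Itgb6, the epithelial activating integrin, was at 223 ± 17.1 CPM in p63beta and 191.5 ± 28.1 CPM in p63alpha keratinocytes. Neither integrin passed (edgeR adjusted p 0.767 and 0.825). Among feedback inhibitors Smad6 had a log2 fold change of 0.75 ± 0.38 and Tgif2 of 0.62 ± 0.40 in keratinocytes (SE, edgeR adjusted p 0.783 and 0.866). Acvr1 and Acvr1b, type I receptors, and the ligand subunit genes Inha and Gdf11 stood between -0.58 and 0.13 on the log2 scale in keratinocytes.

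In epidermis, Id1, a target of BMP signalling that TGF-beta also regulates, was at 37.5 ± 8.98 CPM in p63beta and 18.9 ± 6.06 CPM in p63alpha libraries (SD, n = 4 each), with no overlap and a log2 fold change of 0.98 ± 0.26 (SE, edgeR adjusted p 0.347). Acvrl1, a type I receptor known from endothelium, was at 2.97 ± 1.12 CPM in p63beta and 6.19 ± 0.970 CPM in p63alpha libraries, with no overlap and a log2 fold change of -1.06 ± 0.31 (SE, edgeR adjusted p 0.508). These 2 of the 49 listed genes tested were without overlap in epidermis, beside 3.07% of all genes. Endothelial markers summed to 1.55 to 10.7 CPM in p63beta and 1.10 to 1.90 CPM in p63alpha epidermis, and 9.61 CPM of the highest sum, in EP12, was Flt1. The part of endothelial cells in the Acvrl1 value was not tested. Bgn and Dcn, proteoglycans that bind TGF-beta, had log2 fold changes of -0.73 ± 0.30 and -0.53 ± 0.31 in epidermis, and Col1a2, a collagen target, of -0.91 ± 0.40 (SE). Fibroblast markers, which include Dcn and Col1a2, summed to 362 to 530 CPM in p63beta and 562 to 612 CPM in p63alpha epidermis. The sums did not overlap, but they contain Dcn itself (75.2 CPM in EP10 and 144 CPM in EP08) and are no separate measure of it. Of the 11 fibroblast markers tested, 2 had a log2 fold change above 0 and 0 were without overlap on their own. The part of fibroblasts in the values of Bgn, Dcn and Col1a2 was not tested. Thbs1, an activator of latent TGF-beta, had 0.58 ± 0.30 and Smad3 0.50 ± 0.30 on the log2 scale in epidermis (SE), and neither passed. Nrros, Acvr1b, Inha, Smad4, Smurf2 and Ski lay between -0.78 and -0.11.

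Finally, genes that varied over the libraries like the member with the largest difference in each kind of sample were found among 12603 genes tested in both, after centring log2 CPM on the mean of each kind. For Inhbb these were Col4a1, a basement membrane collagen (Pearson r 0.911 over 14 libraries), Flrt3, a membrane adhesion protein (0.903), and Pxn, the focal adhesion protein paxillin (0.895). For Inhba they were Igfbp3, an insulin-like growth factor binding protein (0.786), Msrb3, a methionine sulfoxide reductase (0.784), and Car5b, a carbonic anhydrase (0.761). In keratinocytes alone r with Inhba was 0.97 for Igfbp3, 0.381 for Msrb3 and 0.777 for Car5b. In epidermis alone it was 0.81, 0.823 and 0.78. Col4a1 had a log2 fold change of 0.44 (edgeR adjusted p 0.566) in keratinocytes and Igfbp3 one of 0.98 in epidermis (edgeR adjusted p 0.9999), and none of the 6 was called. These correlations share libraries with the fits above and the variation of EP12 and WT3, and are given as a description.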

How the data were processed

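RNA was extracted and made into stranded mRNA libraries, per the labels' protocols. For keratinocytes the authors deposited read-pair counts per RefSeq gene, made with featureCounts 1.5.2 with strand setting 2 and a minimum overlap of 25 bases, per the file headers, and FPKM values, all of which were recomputed from the counts to within 0.1%. For epidermis the authors deposited expected counts and TPM per gene and per transcript, estimated with Salmon, per the submitters' processing notes. The expected counts were rounded to whole numbers. The authors' deposited DESeq2 tables give log2 fold changes and p-values (adjusted), and their 14 per-library columns were not used. The build was mm10, per the submitters' processing notes.

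Gene IDs of the keratinocyte table were turned into symbols by the authors' keratinocyte table. Epidermis columns carry KO or WT in their names, taken here for p63beta and p63alpha from the use of these words in the keratinocyte count header, and the names do not say which sample a column is. Keratinocytes and epidermis had separate fits in edgeR 4.0.16 under R 4.3.3 (TMM, filterByExpr by group, robust quasi-likelihood F test), with Benjamini-Hochberg adjustment over all genes tested and a threshold of 0.05. The script was tested on simulated data. The keratinocyte replicate numbers come from the sample titles, which do not say what a number stands for. Deviations from the group means correlated between libraries of the same number (r 0.572, 0.498 and 0.173 over 13820 genes) and at -0.522 to 0.179 between different numbers. Deviations from a group mean sum to 0, which by itself lowers the values between different numbers. For number 3, the 0.173 was no higher than the 0.179 between p63beta library 3 and p63alpha library 2. Pairing by number is thus an assumption drawn from these same data. The fit with the number as a block stands beside the fit without it. Transcript shares were compared by exact permutation over 8 libraries.

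The 10 genes and all lists were chosen with earlier results of these data known. The named genes are the 10 in every library, in each of 7 pathway lists the 2 genes with the lowest p in each system and any called gene, and the 3 genes most correlated with the member of largest change in each system. Alternatives were DESeq2 1.42.0, limma 3.58.1 on the log2 of FPKM or TPM plus 1 or 0.1, RLE normalization, an open filter for low genes, non-robust dispersion, leaving out libraries or pairs, and the epidermis column-name prefix as a term. Promoter sequences are from RefSeq (GRCm38.p6).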

Additional observations from a re-analysis of the deposited data

How the results depend on the processing

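Inhbb in keratinocytes was above 0 under all 16 alternatives (log2 fold change 1.42 to 1.96) and was called under 3 of them, DESeq2 (1.77, adjusted p 1.01e-09), the replicate block (1.78, edgeR adjusted p 0.0330) and the block without pair 1. The edgeR adjusted p without the block was 0.0868 to 0.488 when a library was left out. The number of the 10 genes called in keratinocytes was 0, and 1 under DESeq2, 1 with the replicate block and 0 to 1 with the block and a pair left out. The block changed no other call among the 10 genes. Over all genes the keratinocyte count of 14 was 211 under DESeq2, 37 with the replicate block, 1 to 4 when a library was left out and 0 to 585 with the block and a pair left out. The epidermis count of 32 was 152 under DESeq2, 8 with the libraries of the first column-name prefix alone and 10 to 28 when a library was left out. None of the 10 genes was called in epidermis, or for the difference of effects, under any alternative run.

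Some signs turned, each without a call, and not only near 0: the main keratinocyte values of Tgfb2 and Tgfbi were 0.27 and -0.45. In keratinocytes Tgfbr1 was -0.0045 under DESeq2, and when a library was left out Fst ran from -0.12 to 0.19, Tgfb2 from -0.32 to 0.81, Tgfbr1 from -0.11 to 0.24 and Tgfbr2 from -0.10 to 0.22. With the block and a pair left out, Fst ran from -0.20 to 0.22, Tgfbi from -0.91 to 0.15, Tgfbr2 from -0.13 to 0.12 and Tgfbr1 was -0.0063 without pair 2 and -0.074 without pair 3. In epidermis Tgfb1 was -0.039 and -0.036 with limma at pseudocounts of 1 and 0.1. It was -0.070 with the first column-name prefix alone and -0.053 without EP12 and WT3 (an alternative chosen after the data were seen). Smad7 was -0.0059 and -0.0081 with limma and -0.15 with the first prefix alone. Fst was -0.049 with the first prefix alone, and Tgfbr2 was 0.042 with the prefix as a term. When an epidermis library was left out Fst ran from -0.14 to 0.48, Smad7 from -0.11 to 0.30, Tgfb1 from -0.19 to 0.22, Tgfbr1 from -0.032 to 0.32 and Tgfbr2 from -0.39 to 0.12. The difference of effects ran from -0.12 to 0.49 for Fst, -0.18 to 0.59 for Tgfbi, -0.081 to 0.33 for Tgfbr1 and -0.41 to 0.091 for Tgfbr2, and the leading Tgfbr2 transcript's share difference from -1.43 to 7.004 percentage points. The cause was not tested. Inhba in epidermis rests on 4 to 45 estimated counts per library, which limits its precision.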
